A study of Mus musculus with 3 samples.

Results

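The genes described here encode 10 components of the smooth muscle contractile apparatus and its transcription: Myh11, Acta2, Tagln, Cnn1, Lmod1, Mylk, Actg2, Smtn, Synpo2 and Myocd. They were taken by name from the 36167 features of the count matrices, and all 10 were found. Nuclear RNA was counted in single nuclei of mouse aortic valve structures collected on postnatal day 1 and flash frozen. The 3 samples are pools of 22 to 24 aortic roots each and form 1 group, so the comparisons are between classes of nuclei within pools. All pups carried the strain label B6.Cg-Scx<tm1.1(EGFP)Skom, with the stock number RBRC11098, an EGFP allele of the tendon-associated transcription factor gene Scx. The labels give neither the zygosity nor a wild-type group, and they do not say which nuclei came from which root.

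Smooth muscle shortens when a myosin of its own slides along actin filaments. Calcium and calmodulin activate myosin light chain kinase, which phosphorylates the myosin regulatory light chain and starts the cycle, and a phosphatase ends it. In the arterial wall the genes of this machinery are switched on together by serum response factor, which binds CArG boxes in DNA, and by its muscle coactivator myocardin. Myocardin is also made in heart muscle, where the sarcomere is built from other actins and myosins. Contractile gene RNA is the usual mark of a differentiated vascular smooth muscle cell, and its fall together with a rise of matrix genes is commonly called the synthetic state.

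The members fall into 5 roles. Myh11 is the smooth muscle myosin heavy chain. Acta2 and Actg2 are the vascular and the enteric smooth muscle actin. Tagln (SM22, also called transgelin), Cnn1 (calponin), Smtn (smoothelin) and Synpo2 (synaptopodin 2, also called myopodin) bind actin or actin-based structures, and Lmod1 (leiomodin) nucleates actin filaments. Mylk encodes myosin light chain kinase, in a smooth muscle form and a longer form made in many cells. Myocd encodes myocardin.

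Because CArG boxes tie these genes to a shared regulator, the 300-base promoter windows of RefSeq (build GRCm38.p6; 250 bases before to 50 after the annotated start) were searched for them on both strands. The windows of 6 members were found: Acta2, Cnn1, Lmod1, Mylk, Smtn and Synpo2. The exact box, 2 C, then 6 bases that are each A or T, then 2 G, was in 0 of these 6 windows and in 1.63% of all 32851 windows. A relaxed box that allows 1 of the 6 inner bases to be G or C, chosen after that count was seen, was in 1 of the 6, that of Acta2, and in 8.5% of all windows. The stretch that holds it is shown because it is the match, with its 2 boxes in capitals. Acta2 lies on the minus strand, and the sequence reads 5′ to 3′ along the gene.
Acta2, chr19:34255374-34255497: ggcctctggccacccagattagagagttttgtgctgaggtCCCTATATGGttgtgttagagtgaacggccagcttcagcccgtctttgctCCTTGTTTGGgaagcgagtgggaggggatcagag
The Acta2 boxes begin 84 and 34 bases before the annotated start. Such a match is a description of letters, and no binding was measured here.

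After filtering, 6473, 3098 and 3611 nuclei of pools 1, 2 and 3 were analysed, with medians of 4283, 4756 and 3340 UMIs per nucleus. They formed clusters that were named from marker genes, with the 10 members and 73 genes of 5 companion lists kept out of both the clustering and the smooth muscle and pericyte markers. A sixth list, of 10 synthetic-state genes, was not kept out of the clustering, so its differences are given as a description. Of the named classes, 10 had at least 20 nuclei in every pool, which gave 30 libraries of summed counts. The smooth muscle-like class held 3171 nuclei, 22.3% ± 6.85 (SD, n = 3 pools) of a pool, and was named by Carmn and Gucy1a1 in each of its clusters and by Itga8, Ednra, Kcnmb1, Jag1, Susd5, Eln or Fbln5 in some. Valve interstitial-like nuclei with Adamts19, Pcdh15 and Matn4 were present too, as the tissue label says. Between 44 and 99 barcodes were shared by pairs of pools among the deposited nuclei. Levels are in CPM, a gene's UMIs in every 1000000 UMIs summed over the nuclei of a class in a pool. They were not corrected for gene length, so a gene is compared between classes and never with another gene. In such sums, fewer nuclei with the RNA and less RNA per nucleus cannot be told apart.

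The first comparison asked in which cells the contractile genes are expressed. Smooth muscle-like nuclei were compared with the average of the 9 remaining classes. All 10 members were higher in them (edgeR quasi-likelihood test, Benjamini-Hochberg adjusted p under 0.05). Of the 13914 genes tested, 25.2% were higher and 7.25% lower, or 32.5% either way. The median log2 difference of the members was 2.31, and that of all genes tested was 0.27.

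Myh11 stood at 788, 687 and 750.3 CPM in the smooth muscle-like nuclei of pools 1, 2 and 3. No library of the 8 tested classes that are neither smooth muscle-like nor pericyte-like exceeded 237 CPM, so these groups did not overlap. The melanocyte-like and adipocyte-like classes, with fewer than 20 nuclei in a pool, were not tested and are left out of this bound and those below. Its log2 difference was 3.51 (SE 0.18; edgeR quasi-likelihood adjusted p = 3.6e-19), the largest of the 10.

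Acta2 was at 857, 1235 and 663 CPM in the same 3 libraries, highest in pool 2, and the other actin Actg2 was at 57.9, 48.6 and 54.4 CPM. Among the tested classes outside the 2 mural ones, smooth muscle-like and pericyte-like, Acta2 reached at most 411 CPM and Actg2 at most 20.9 CPM, both in macrophage-like libraries. The log2 differences were 2.11 (SE 0.14) for Acta2 and 2.43 (SE 0.20) for Actg2, with edgeR adjusted p of 5.3e-16 and 7.6e-13.

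Among the actin-binding members, Tagln was at 431, 575 and 302 CPM and rose by 2.06 on the log2 scale (SE 0.15). Cnn1 was at 69.5, 86.7 and 49.1 CPM and was higher by 2.59 (SE 0.17). Both genes, like Acta2, were highest in pool 2 and lowest in pool 3 of the smooth muscle-like class. Lmod1 was steadier, at 297, 276 and 268 CPM, and its log2 difference of 3.33 (SE 0.12) was close in size to that of Myh11. Synpo2 was at 996, 860.4 and 1182 CPM, lowest in pool 2, and was higher by 2.69 (SE 0.14). Smtn had the smallest difference, 1.37 (SE 0.12), at 211, 205 and 164 CPM. No library of the tested classes outside the mural ones exceeded 189.5 CPM for Tagln, 20.9 CPM for Cnn1 or 114 CPM for Lmod1. The bounds were 476 CPM for Synpo2 and 139 CPM for Smtn, so none of the 5 overlapped. The share of all tested genes whose libraries separate like this was not counted, so the count has no background beside it.

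Mylk and Myocd did not separate the classes in this way. Mylk was at 248, 238 and 240 CPM in smooth muscle-like nuclei and at 287, 175 and 138 CPM in mesothelial-like nuclei, so these 2 classes overlapped. The log2 difference of Mylk against the mean of the 9 classes was 1.82 (SE 0.14; edgeR adjusted p = 3.5e-14). Myocd was at 727, 567 and 636 CPM in smooth muscle-like nuclei and rose by 2.20 against that mean (SE 0.16; edgeR adjusted p = 2.7e-14). In every pool its level was higher in cardiomyocyte-like than in smooth muscle-like nuclei, as described further on.

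**Figure D1:**
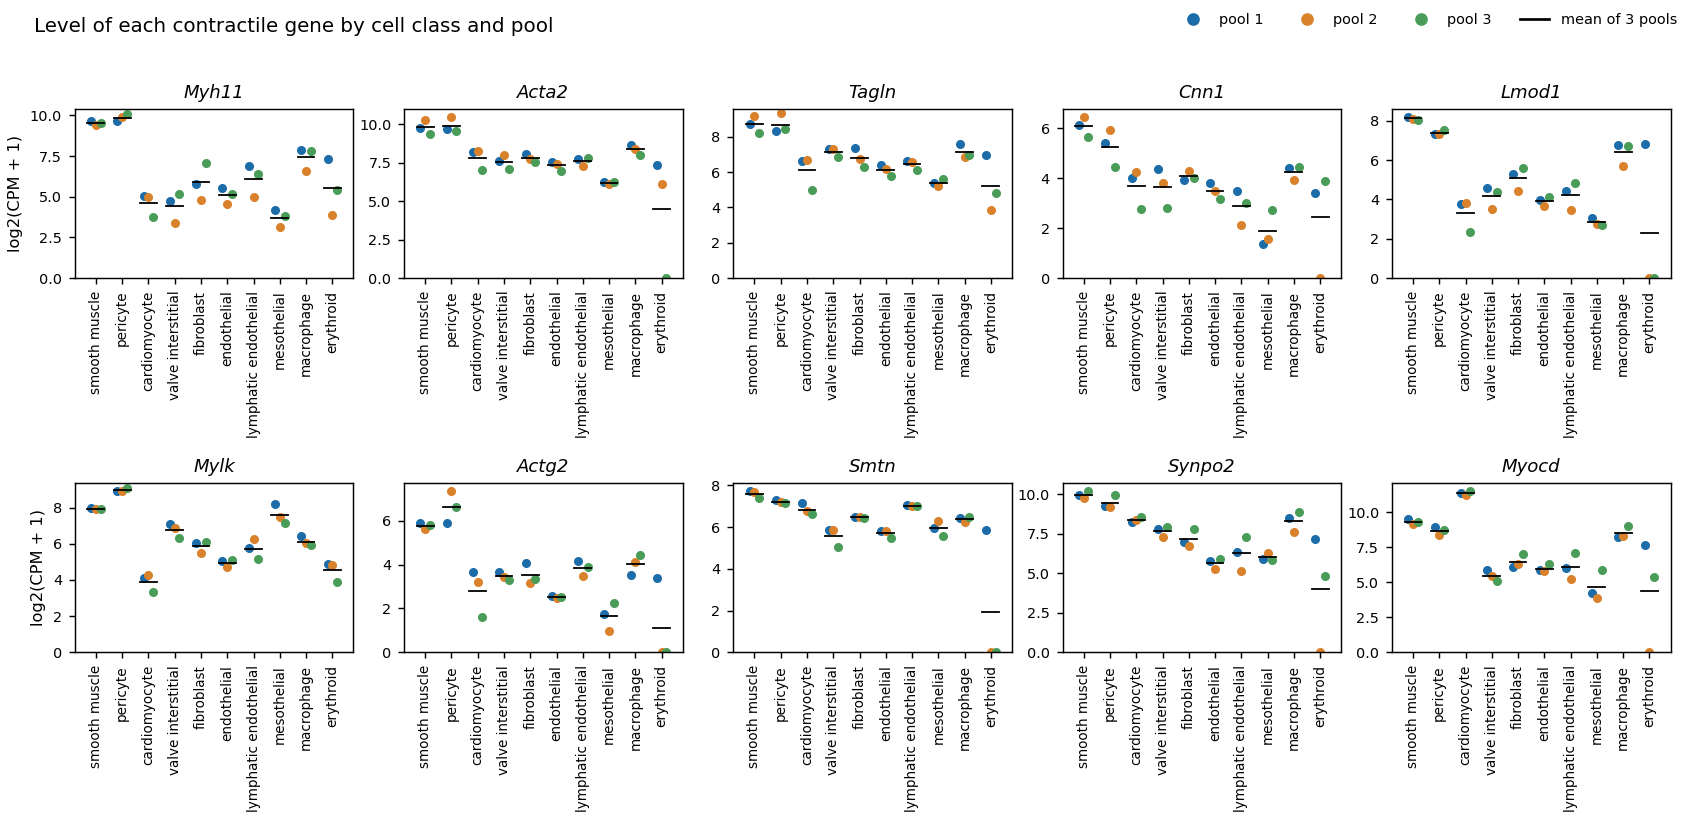
Level of each of the 10 members in the 10 cell classes, on a log2(CPM + 1) axis, with a point for each of the 3 pools and a bar at their mean. Smooth muscle-like libraries lie above all non-mural ones plotted for 8 members, while Mylk is also high in mesothelial-like nuclei and Myocd is highest in cardiomyocyte-like nuclei (2676 CPM). The share of all genes with such a separation was not counted. Points at 0 in the erythroid-like class are libraries with no UMI of the gene.

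Other genes of the apparatus moved the same way. Of 20 other contractile and cytoskeletal genes, 17 were higher in smooth muscle-like nuclei and none lower, with a median of 1.17. The largest differences were those of Nexn, which binds actin in muscle (2.10), the actin cross-linker Flna (1.77), the tropomyosin Tpm2 (1.70) and the regulatory light chain Myl9 (1.67). Of 17 genes of calcium handling and light chain phosphorylation, 10 were higher and 3 lower (median 0.90). They included Mylk4, a kinase of the same family as Mylk (4.01), Mrvi1, a substrate of cGMP-dependent kinase at calcium stores (3.17), Kcnma1, a calcium-activated potassium channel (2.45), and Ppp1r14a, an inhibitor of myosin phosphatase (1.99). Of 14 transcription factor genes, 4 were higher and 3 lower (median 0.23). The share higher and the median were near the 25.2% and 0.27 of all genes tested. Tead3 was higher (2.50) and Klf4, known as a repressor of contractile genes, was lower (-2.19). Srf, the partner of myocardin, was at 16.1 CPM ± 7.22 in smooth muscle-like and 16.3 CPM ± 4.14 in cardiomyocyte-like nuclei (SD, n = 3 pools).

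The share of nuclei with at least 1 UMI was compared after each nucleus was thinned to 1000 UMIs. In the smooth muscle-like class a Synpo2 UMI was present in 52.0% ± 5.04 of nuclei (SD, n = 3 pools; 78.7% without thinning) and an Acta2 UMI in 47.9% ± 7.19 (76.0% without thinning). The share was 40.8% ± 1.55 for Myocd (69.6% without thinning) and 39.7% ± 2.99 for Myh11 (63.8%). Tagln was found in 29.8% ± 3.27 (60.9% without thinning), Lmod1 in 23.4% ± 1.02 (52.5%), Mylk in 21.3% ± 2.08 (47.1%) and Smtn in 17.1% ± 1.38 (46.3%). Cnn1 and Actg2 were the sparsest, at 6.32% ± 1.43 (19.1% without thinning) and 4.45% ± 0.587 (11.9%).

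Free RNA can put a UMI into nuclei that do not express a gene, so the same shares were read in macrophage-like and endothelial-like nuclei. Before thinning the median depths were 3358 UMIs in smooth muscle-like, 3386 in macrophage-like and 4452 in endothelial-like nuclei. Macrophage-like nuclei had an Acta2 UMI in 15.5% ± 7.21, a Tagln UMI in 15.4% ± 4.45, a Myocd UMI in 11.9% ± 1.97 and a Myh11 UMI in 7.998% ± 4.49 (SD, n = 3 pools). Endothelial-like nuclei had them in 13.3% ± 2.41, 6.81% ± 1.39, 4.02% ± 0.364 and 2.09% ± 0.714. For these 4 genes the share was at least 29.8% in smooth muscle-like nuclei. The Acta2 share of 16.1% ± 5.20 in valve interstitial-like and 16.9% ± 1.36 in fibroblast-like nuclei was within the spread of the macrophage-like share. The part of free RNA in these shares was not tested.

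The proportions between members were also counted in each class. Per 100 Myh11 UMIs, smooth muscle-like nuclei held 116 Acta2, 32.0 Mylk, 132 Synpo2 and 89.5 Myocd UMIs. Erythroid-like nuclei, with 21 Myh11 UMIs in all, held 105, 28.6, 81.0 and 114. On the same scale there were 1707 Mylk UMIs in mesothelial-like, 511 Mylk UMIs in valve interstitial-like and 1238 Synpo2 UMIs in cardiomyocyte-like nuclei.

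Members were also counted together in each thinned nucleus. A smooth muscle-like nucleus had UMIs of 2.83 ± 0.115 members on average, and a pericyte-like nucleus of 2.50 ± 0.365 (SD, n = 3 pools). The average was 1.52 ± 0.109 in cardiomyocyte-like and 0.378 ± 0.0504 in endothelial-like nuclei. At least 4 of the 10 were found in 32.3% ± 3.03 of smooth muscle-like and 30.7% ± 3.18 of pericyte-like nuclei, against 3.51% ± 2.25 of cardiomyocyte-like and 0.174% ± 0.154 of endothelial-like nuclei. None was found in 6.54% ± 0.985 of smooth muscle-like and 24.4% ± 11.9 of pericyte-like nuclei, so these classes differed in the share without any member.

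**Figure D2:**
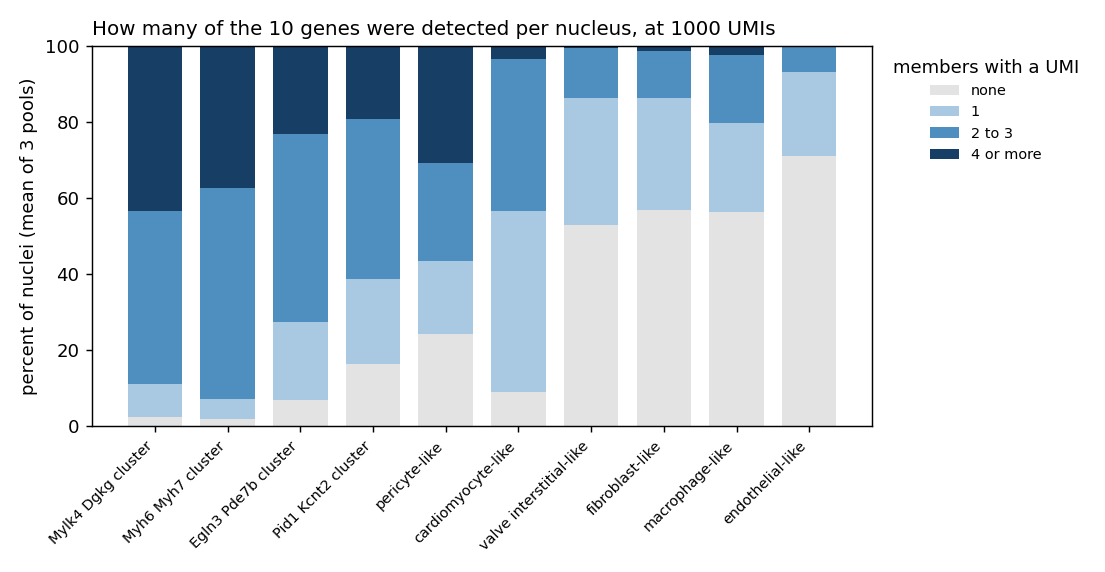
Percent of nuclei, thinned to 1000 UMIs, with UMIs of none, 1, 2 to 3 or at least 4 of the 10 members, as the mean of 3 pools, in the smooth muscle-like clusters and 6 other classes. At least 4 members were found in 43.5% of nuclei of the Mylk4 Dgkg cluster and 19.2% of the Pid1 Kcnt2 cluster, both described further on.

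Pericytes, the mural cells of small vessels, share much of the contractile programme with smooth muscle. The pericyte-like class was small, with 54, 43 and 44 nuclei in pools 1, 2 and 3. Lmod1, Cnn1, Myocd and Synpo2 were higher in smooth muscle-like than in pericyte-like nuclei and Mylk was lower (edgeR quasi-likelihood test, Benjamini-Hochberg adjusted p under 0.05). That is 5 of 10 members, against 10.9% of all 13914 genes tested, of which 4.57% were higher and 6.35% lower.

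Mylk was at 490.1, 475 and 538 CPM in pericyte-like nuclei, above each of the smooth muscle-like values of 248, 238 and 240 CPM. The groups did not overlap, and the log2 difference was -0.89 (SE 0.19; edgeR adjusted p = 0.0011). Lmod1 went the other way, at 158, 159.7 and 188 CPM in pericyte-like against 297, 276 and 268 CPM in smooth muscle-like nuclei, again without overlap (0.92, SE 0.22; edgeR adjusted p = 0.0027). Myocd was at 488, 336 and 418 CPM in pericyte-like nuclei, below each smooth muscle-like library, a log2 difference of 0.78 (SE 0.26; edgeR adjusted p = 0.049). For Cnn1 (40.8, 58.8 and 20.9 CPM in pericyte-like nuclei) and Synpo2 (615, 584 and 972 CPM) the libraries of the classes overlapped, though within each pool the smooth muscle-like value was higher. Their differences were 0.91 and 0.66, with SEs of 0.31 and 0.22 and edgeR adjusted p of 0.047 and 0.049.

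Myh11 did not pass the test, with 786, 933 and 1072 CPM in pericyte-like nuclei. Acta2 (812, 1445 and 763 CPM), Tagln (319, 643 and 345 CPM), Smtn (156, 147 and 141 CPM) and Actg2 (58.7, 164 and 99.3 CPM) did not pass it either. Actg2 and Tagln were highest in pool 2 of the pericyte-like class, as was Acta2.

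Of 12 cell cycle genes, 12 were lower in smooth muscle-like than in pericyte-like nuclei (median -2.98, against 0.08 for all genes). At least 2 UMIs of these genes were found in 15.9% ± 5.64 of thinned pericyte-like and 1.65% ± 0.287 of smooth muscle-like nuclei (SD, n = 3 pools), and their part in the differences above was not tested. The smooth muscle-like class leaves out an unnamed cluster of 529 nuclei with the smooth muscle markers Itga8 and Carmn, described further on, of which 83.3% ± 5.97 were cycling. Of 9 genes of the synthetic state tested, 5 were higher in smooth muscle-like nuclei, led by the matrix protein gene Tnc (1.99) and Tnfrsf11b, which encodes osteoprotegerin (1.96). Only the Mylk difference was called in each of the 12 settings run, the reported one included, while Lmod1 was called in 7, Synpo2 in 6, Myocd in 5 and Cnn1 in 2. Of the members not called in the reported fit, Actg2 was called lower in 5 settings and Smtn higher in 2. Without pool 1, with doublets kept and without the pool block, no member was called higher. Without pool 2 or 3 the members called fell to 2 and 3, and with DESeq2 to 2, Smtn higher and Mylk lower.

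Cardiomyocyte-like nuclei were compared with the mean of the 7 classes that are neither mural nor cardiomyocyte-like, since myocardin also works in heart muscle. Myocd was at 2648, 2426 and 2955 CPM in them, while the other libraries of this comparison held at most 521 CPM. The groups did not overlap, and the log2 difference was 5.26 (SE 0.15; edgeR quasi-likelihood adjusted p = 5.3e-28). The mean level was 2676 ± 266 CPM in cardiomyocyte-like and 644 ± 80.3 CPM in smooth muscle-like nuclei (SD, n = 3 pools), and a Myocd UMI was present in 75.6% ± 7.15 of thinned cardiomyocyte-like nuclei (87.9% without thinning).

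In the same comparison Synpo2 (1.78), Smtn (1.02), Acta2 (0.68) and Cnn1 (0.66) were higher and Mylk (-1.97), Lmod1 (-1.07) and Myh11 (-0.79) were lower (edgeR quasi-likelihood, Benjamini-Hochberg adjusted p from 2.3e-12 for Synpo2 to 0.027 for Cnn1). With Myocd this made 8 of 10 members called, against 45.9% of all genes tested, of which 31.2% were higher and 14.7% lower. Synpo2 was at 308, 329 and 374 CPM, close together in the 3 pools. Only macrophage-like libraries among the others, at 356, 193 and 476 CPM, reached that range. Smtn was at 139, 107 and 96.8 CPM, and the lymphatic endothelial-like libraries, at 132, 129 and 126 CPM, lay in the same range. Mylk was at 16.0, 18.4 and 8.89 CPM in cardiomyocyte-like nuclei, and in each pool this was below every one of the 7 other classes, of which the erythroid-like came nearest in pools 1 and 3 with 28.4 and 13.7 CPM.

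Acta2 was at 291, 308 and 130.03 CPM and Myh11 at 32.0, 30.7 and 12.7 CPM in cardiomyocyte-like nuclei, lowest in pool 3 for both. Cnn1 was at 14.96, 18.04 and 5.84 CPM in these nuclei. Macrophage-like libraries, at 19.87, 14.14 and 20.9 CPM of Cnn1, overlapped them. At 1000 UMIs an Acta2 UMI was present in 20.7% ± 7.66 of cardiomyocyte-like nuclei, which overlaps the 15.5% ± 7.21 of macrophage-like nuclei. The part of free RNA in the higher Acta2 and Cnn1 was not tested. The class includes a shallow cluster of 575 nuclei, with a median of 1987 UMIs and a median mitochondrial share of 3.60%. Acta2 was at 864 ± 286 CPM and Cnn1 at 39.9 ± 23.5 CPM in it. In the largest cluster, of 1592 nuclei, they were at 131 ± 34.0 and 4.95 ± 1.80 CPM (SD, n = 3 pools). Synpo2 and Smtn were not higher in the shallow cluster, at 249.5 and 114 against 334 and 116 CPM. The part of this cluster in the calls was not tested. All 10 genes of the striated sarcomere were higher in cardiomyocyte-like nuclei, led by Ttn (6.42), Myh6 (3.93), Tnnt2 (3.70) and Myh7 (3.24), and several of them had named the class. Of the transcription factor genes 8 of 14 were higher and 3 lower. The directions of Myh11 and Lmod1 were not the same in every setting. With doublets kept they were at 0.59 and 0.10, and with the members among the clustering genes 1.06 and 0.47, while without pool 1 Lmod1 was at 0.37. With doublets kept, and likewise with the members among the clustering genes, 8 members were called higher and only Mylk lower. Here and below, the latter setting also put the companion lists other than cell cycle among the clustering genes.

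**Figure D3:**
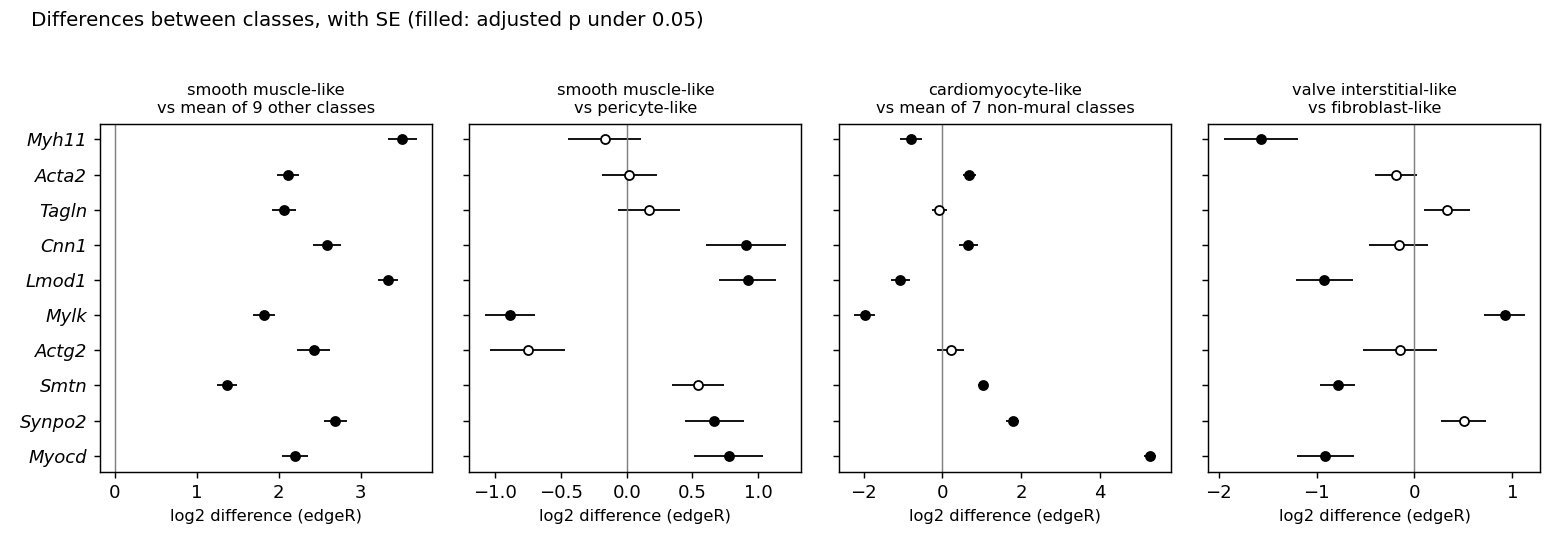
Log2 difference of each member in 4 comparisons between classes, from edgeR, with bars of 1 SE and filled points for a Benjamini-Hochberg adjusted p under 0.05. All 10 points are filled and positive for smooth muscle-like nuclei against the other classes, and the Myocd point of cardiomyocyte-like nuclei lies at 5.26.

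Valve interstitial cells are the resident cells of the leaflets and can become contractile myofibroblasts. Of the members, 1 was higher and 4 were lower in valve interstitial-like than in fibroblast-like nuclei, where 8% of all genes tested were higher and 8.24% lower (16.2% either way). Mylk was the higher one, at 135, 116 and 78.0 CPM against 65.5, 44.0 and 67.4 CPM. The groups did not overlap, and the log2 difference was 0.92 (SE 0.21; edgeR quasi-likelihood adjusted p = 0.0010). Myh11 was lower, at 25.5, 9.32 and 34.2 CPM against 54.6, 26.4 and 133 CPM. These ranges overlapped, with the valve interstitial-like value below the fibroblast-like one in each pool (-1.57, SE 0.38; edgeR adjusted p = 0.0021). Smtn, at 57.3, 57.7 and 31.9 CPM against 87.6, 87.3 and 86.0 CPM, did not overlap and was lower by -0.79 (SE 0.18; edgeR adjusted p = 0.0013). Lmod1 (-0.92) and Myocd (-0.91) were lower too, with edgeR adjusted p of 0.023 and 0.024. Macrophage-like nuclei, used above as a reference for free RNA, held 183 ± 77.6 CPM of Myh11, 87.8 ± 31.2 of Lmod1, 383 ± 120 of Myocd and 82.3 ± 6.22 of Smtn (SD, n = 3 pools). For Myh11, Lmod1 and Myocd these means lie above those of both classes compared. Endothelial-like nuclei, the other reference, held 34.1 ± 10.9 CPM of Myh11 and 14.4 ± 2.35 of Lmod1. They held 63.2 ± 12.3 CPM of Myocd and 51.8 ± 6.65 of Smtn (SD, n = 3 pools). For all 4 genes the endothelial-like means lie below the fibroblast-like ones, so the 2 references differ. The part of free RNA in the 4 lower calls was not tested.

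Acta2, the usual mark of myofibroblasts, was at 199, 250.4 and 138 CPM in valve interstitial-like and 265, 218 and 186 CPM in fibroblast-like nuclei, and did not pass the test. Tagln (156, 155 and 116 CPM against 162, 107 and 76.7 CPM), Cnn1, Actg2 and Synpo2 did not pass it either. Of the other contractile genes 3 of 20 were higher and none lower, among them Pdlim3 (0.90), a protein of actin-anchoring structures. Smtn was called in all 11 settings run, Mylk in 10, Myh11 in 9, and Lmod1 and Myocd in 5 each. Without pool 2 the count fell to 2 members and Mylk was not among them, and with the members among the clustering genes Myh11 was at 0.0275.

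Mylk was also high in mesothelial-like nuclei, which cover the outer surface of the root. Its level there was 199.9 ± 77.3 CPM (SD, n = 3 pools), and a Mylk UMI was present in 15.6% ± 4.42 of thinned nuclei (37.7% without thinning) against 3.79% ± 0.820 of macrophage-like nuclei (21.9% without thinning), with median depths of 9964 and 3386 UMIs before thinning. Acta2 and Myh11 in the same nuclei were at 73.2 ± 4.59 and 12.5 ± 4.52 CPM. The gene counts do not separate the forms of Mylk, and no test was planned for this class.

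Smooth muscle-like nuclei fell into 4 clusters, called here by their 2 leading genes by fold against the rest of the class. The Mylk4 Dgkg cluster had 1428 nuclei, followed by Ptprz1, and the Egln3 Pde7b cluster had 939, with Clca3a2 and Pi15. The Pid1 Kcnt2 cluster had 564 nuclei, with Bicc1. The Myh6 Myh7 cluster had 240, of which 10 were in pool 3. The 3 clusters with at least 20 nuclei in every pool were each set against the mean of the other two. These 3 comparisons share libraries and are not independent, and their p-values take the clusters, defined on other genes of the same nuclei, as given.

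In the Mylk4 Dgkg cluster 8 of 10 members were higher and none lower, against 11.1% of 9490 genes tested that were higher and 22.7% that differed either way. The members' median log2 difference was 0.53, and that of all genes -0.01. Myh11 was at 1035, 973 and 1088 CPM there, above the 521, 442 and 499 CPM of the Egln3 Pde7b and the 360.0, 260.2 and 389.9 CPM of the Pid1 Kcnt2 cluster. No library overlapped, and the log2 difference was 1.42 (SE 0.07; edgeR quasi-likelihood adjusted p = 1.6e-15). Acta2 was at 918, 1123 and 898 CPM, with 1 library of another cluster, at 958 CPM, inside that range. Its log2 difference was 0.83 (SE 0.08; edgeR adjusted p = 6.7e-10). With the fourth cluster, described further on, in the fit, it was 0.23 and not called (edgeR adjusted p = 0.073). Myocd was at 904, 747 and 780.3 CPM, where the other clusters held at most 548 CPM, and differed by 0.81 (SE 0.07; edgeR adjusted p = 3.6e-10).

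The other 5 called members of this cluster were Cnn1 (0.59), Smtn (0.53), Mylk (0.53), Lmod1 (0.48) and Tagln (0.41), with edgeR adjusted p of at most 0.0020. With the fourth cluster in the fit, Cnn1 (0.21, edgeR adjusted p = 0.29) and Tagln (-0.0505, edgeR adjusted p = 0.77) were no longer called. Synpo2 (973, 920.5 and 1140 CPM) and Actg2 (45.6, 41.5 and 58.0 CPM) did not pass the test. Synpo2 was called in both directions in other settings, higher with the fourth cluster (0.29, edgeR adjusted p = 0.014) and lower with the members among the clustering genes (-0.20, edgeR adjusted p = 0.034). Of the other contractile genes 17 of 20 were higher and 1 lower, led by Pdlim5 (1.54), a protein of actin-anchoring structures, and Nexn (1.23). Of the calcium and phosphorylation genes 8 of 16 were higher and 3 lower, among them the calcium release channel Ryr2 (1.48) and Ppp1r12b, a subunit of myosin phosphatase (0.91). Mylk4, which names the cluster, belongs to this list and was not a clustering gene. Of the synthetic-state genes 6 of 9 were lower and 2 higher, with Mgp (-1.75) and Col3a1 (-1.64) the lowest, and 7 of 9 striated genes were lower, Myl7 by -0.76. Whether heart muscle RNA had a part in the differences between clusters was not tested.

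The Egln3 Pde7b cluster showed a divided pattern, with 2 members higher and 5 lower, against 18.1% of genes tested that differed either way (8.96% higher, 9.13% lower). Synpo2 was highest here, at 1298, 1214 and 1464 CPM, above every library of the other 2 tested clusters, and its log2 difference was 0.64 (SE 0.07; edgeR adjusted p = 8.2e-08). Actg2 was the other higher member, at 82.5, 52.9 and 51.6 CPM (0.59, SE 0.17; edgeR adjusted p = 0.013). Its values overlapped those of both other clusters. Acta2 was lower, at 473, 663 and 386 CPM (-0.73, SE 0.08; edgeR adjusted p = 6.7e-08). Mylk was lower too, at 198, 192 and 159 CPM, below every library of the other 2 clusters (-0.49, SE 0.10; edgeR adjusted p = 0.00038). The differences of Tagln (-0.30), Myh11 (-0.29) and Myocd (-0.26) were smaller in this fit, with edgeR adjusted p between 0.0090 and 0.024. They were not stable in size: with the members among the clustering genes Myh11 was at -1.14 and Myocd at -0.91, past Acta2 and Mylk (both -0.83), and with the fourth cluster in the fit Tagln was at -0.69 and Myh11 at -0.57.

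Of the other contractile genes 14 of 20 were lower in this cluster and none higher, led by Pdlim5 (-1.20) and Nexn (-1.16). Of 9 striated genes 3 were higher and none lower, Myh6 (0.45), Actc1 (0.35) and Myl2 (0.28). Acta2 and Mylk were called in all 11 settings run and Synpo2 in 10, but Myh11 and Myocd in 8, Tagln in 7 and Actg2 in 5. Without pool 1 only 3 members were called, and without the pool block also 3. With the members among the clustering genes none was called higher and 8 were lower, with Synpo2 at 0.14 (edgeR adjusted p = 0.14) and Actg2 at 0.0384 (edgeR adjusted p = 0.91).

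In the Pid1 Kcnt2 cluster no member was higher and 4 were lower, against 12.6% of genes tested that differed either way (6.83% higher, 5.73% lower). Myh11 was lowest here in each pool, at 360.0, 260.2 and 389.9 CPM, and was lower by -1.13 (SE 0.09; edgeR adjusted p = 2.7e-11). Synpo2 was at 750.2, 502 and 849.7 CPM, below all libraries of the other 2 clusters (-0.78, SE 0.08; edgeR adjusted p = 1.1e-08). Smtn (156, 143 and 126 CPM) was lower by -0.56 and Myocd (514, 390.3 and 478 CPM) by -0.55, with edgeR adjusted p of 0.00029 and 8.6e-06. Acta2, at 638, 958 and 506 CPM, and Mylk, at 232, 228 and 236 CPM, did not pass the test. With the fourth cluster in the fit Acta2 was called lower (-0.58, edgeR adjusted p = 1.6e-05), as were Actg2 (-0.63), Cnn1 (-0.63) and Tagln (-0.50). With doublets kept 2 of the 4 calls remained, Synpo2 and Myh11.

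Of the synthetic-state genes, which could shape the clusters, 7 of 9 were higher in this cluster and none lower (median 1.04, against a median of -0.44 for the 10 members). Col3a1 (1.76) and Col1a1 (1.13), the genes of fibrillar collagens, were among them, as were the proteoglycan gene Lum (2.00) and Thbs1 (1.08). Col3a1 was at 2582 ± 834 CPM here and 477 ± 24.2 CPM in the Mylk4 Dgkg cluster (SD, n = 3 pools). Of the 20 other contractile genes 1 was higher, Pdlim3 (0.65), and 4 were lower, with a median of -0.09. Of 16 calcium and phosphorylation genes 8 were lower and none higher. Of 9 striated genes 3 were higher and none lower, Tnnt2 (0.56), Myl7 (0.56) and Ttn (0.42), and their part in these differences was not tested. With the members among the clustering genes, 368 of its 564 nuclei stayed together in a cluster of 1018. None of the 4 lower calls remained there, with Myh11 at -0.0596 and Myocd, Smtn and Synpo2 at 0.21, 0.0026 and 0.0572, and the 1 member called, Mylk, was higher (0.46, edgeR adjusted p = 0.0019).

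**Figure D4:**
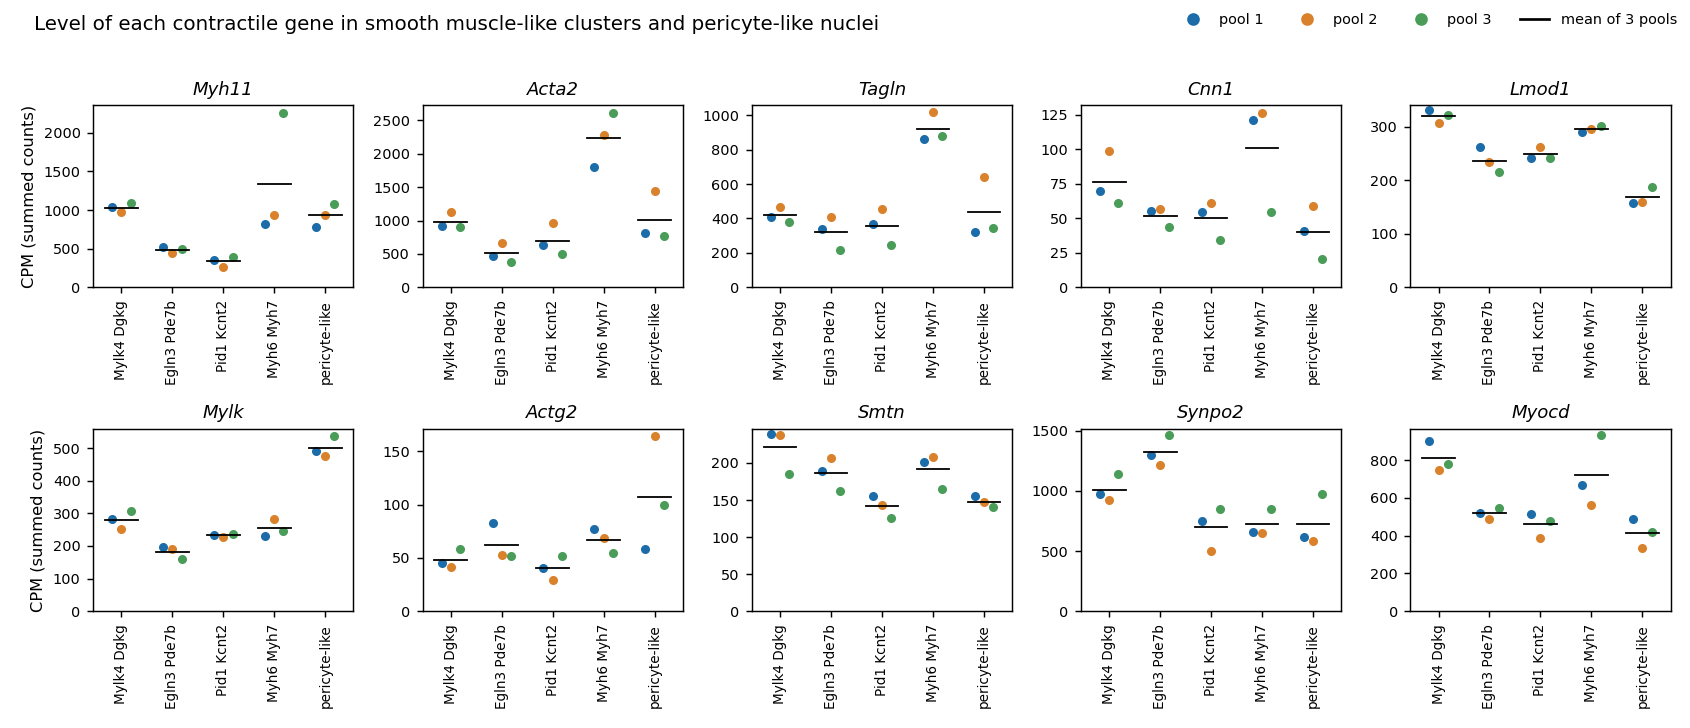
Level of each member in CPM in the 4 smooth muscle-like clusters and in pericyte-like nuclei, with a point for each pool and a bar at the mean of 3 pools. Myh11 separates the Mylk4 Dgkg cluster (973 to 1088 CPM) from the Egln3 Pde7b (442 to 521 CPM) and Pid1 Kcnt2 (260.2 to 389.9 CPM) clusters, and Synpo2 is highest in the Egln3 Pde7b cluster.

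The fourth cluster was led within its class by the heart muscle genes Myh6, Myh7, Trdn, Tnni1 and Ttn, and held 150, 80 and 10 nuclei of the 3 pools. Acta2 was at 1804, 2279 and 2609 CPM in it, above every library of the other 3 clusters, and Tagln, at 859.8, 1016 and 879 CPM, was above them as well. In a fit with all 4 clusters, added after the data were seen, Acta2 (1.52), Tagln (1.24), Cnn1 (0.94), Myh11 (0.90) and Actg2 (0.56) were higher and Synpo2 (-0.49) lower than the mean of the other 3. The edgeR quasi-likelihood adjusted p was at most 0.038, and 25.5% of 9693 genes were called. Myh6 was at 877 ± 186 CPM here and 111 ± 18.4 CPM in the Mylk4 Dgkg cluster (SD, n = 3 pools). The median mitochondrial share was 2.63%, against 0.42 to 0.68% in the other 3 clusters, and ribosomal protein genes took 3.32% ± 0.217 of UMIs, against 1.04 to 1.52%. Their part in the higher Acta2 and Tagln was not tested.

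Contractile RNA was next compared between cycling and other smooth muscle-like nuclei. A cycling nucleus had at least 2 UMIs of the 12 cell cycle genes after thinning, which gave 25, 9 and 14 such nuclei in pools 1, 2 and 3, each matched in pool, cluster and depth to 1 other nucleus. Of 8 members tested none was called by edgeR or DESeq2, where 0.0607% of the 1648 genes tested were called by edgeR. That share is 1 gene, Diaph3, which is one of the 12 that defined the cycling nuclei. DESeq2 called 2 genes, and 110 genes had an unadjusted edgeR p under 0.05. Myh11 had a log2 difference of -0.58 (SE 0.23; edgeR quasi-likelihood adjusted p = 0.70), and Smtn one of 0.33 (SE 0.31; edgeR adjusted p = 0.85).

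A further cluster of 529 nuclei carried 2 smooth muscle markers, Itga8 and Carmn, and stayed unnamed, so its nuclei are outside the class. Of its thinned nuclei 83.3% ± 5.97 were cycling (SD, n = 3 pools). Myh11 was at 487, 286 and 452 CPM in that cluster and Acta2 at 647, 728 and 409 CPM, with Lmod1 at 204, 102 and 149 CPM. Each of these values was below the smooth muscle-like value of its pool. Of the members 2 to 3 were found in 36.1% ± 6.32 of its thinned nuclei and none in 24.8% ± 8.47.

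The last comparison asked whether the other contractile genes go with Myocd RNA in single nuclei. Smooth muscle-like nuclei with a Myocd UMI were matched in pool, cluster and depth to nuclei without one, giving 479, 133 and 307 pairs of the 1402, 343 and 507 nuclei with such a UMI, so the comparison covers only part of them. All 9 members tested had a positive log2 difference, from 0.14 for Smtn to 0.54 for Actg2, and none was called by edgeR or DESeq2. EdgeR called 0.313% of the 8934 genes tested, 0.056% higher and 0.257% lower, and DESeq2 6 genes, and 608 genes had an unadjusted edgeR p under 0.05. Acta2 was higher by 0.30 (SE 0.09; edgeR quasi-likelihood adjusted p = 0.19), Mylk by 0.34 (SE 0.10; edgeR adjusted p = 0.22) and Myh11 by 0.26 (SE 0.09; edgeR adjusted p = 0.38). The median was 0.26 for the members and 0.0012 for all genes. When nuclei were matched within pools but not within clusters, 5 of the 9 members were called higher, where 3.28% of 8788 genes were called higher and 2.38% lower (5.66% either way).

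Across the 30 libraries of 10 classes and 3 pools, the members were also compared with 7180 genes outside all lists by Pearson's r of log2(CPM + 1). Libraries of 1 pool share their depth and free RNA, and r is given as a description. The genes most like the mean of the 10 members were Acan (r = 0.95), Rgs5 (0.94), Csrp2 (0.94), Cdh6 (0.93), Dgkb (0.93), Carmn (0.93), Mark1 (0.92), Adcy5 (0.90), Tmem38b (0.90) and Rgs7 (0.90). Carmn was one of the markers that named smooth muscle-like clusters, and Rgs5 one of those of pericyte-like nuclei. Set against the mean of the other 9, Actg2 (0.94), Lmod1 (0.93) and Tagln (0.92) had the highest r among the members and Mylk the lowest (0.52). The genes most like Myocd alone included Akap6 (0.96), Myom1 (0.95), Atcayos (0.94) and Speg (0.94). Among the other members Synpo2 came nearest to Myocd (0.83), and r between Mylk and Myocd was -0.0037.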

How the data were processed

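The authors deposited raw UMI counts, and the file headers name Cell Ranger 7.1.0 as the tool. The submitters' processing notes name versions 7.0.1 and 7.1.0 and the build GRCm39, and whether introns were counted is not given in the sources used here.

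The deposited nuclei numbered 10580, 5949 and 4611 in the 3 pools, with at least 500 UMIs each and totals of 49918251, 25341316 and 21254247 UMIs. A chi-square test of the counts gave 21.7 to 36.0 per degree of freedom, so no pair of pools matched within counting error. Nuclei with at least 1000 UMIs and at most 5% mitochondrial UMIs were kept (28.6%, 41.8% and 14.1% lay above that limit). Scrublet's automatic threshold marked 0 nuclei, and the top 0.8% of scores per 1000 nuclei were removed instead (598, 155 and 138 nuclei). Clusters came from scanpy 1.11.5 and leidenalg 0.10.2 (2000 variable genes, 30 components, 15 neighbours, resolution 1), without the 83 genes of the members and 5 companion lists found in the files (the 10 synthetic-state genes were not held out) and without mitochondrial and sex-linked genes. A cluster took a class name with at least 3 markers in at least 10% of its nuclei and at least 2-fold higher (pseudocount 5 CPM). Names carry "like" since the labels assign no nucleus to a type.

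Summed counts were tested with edgeR 4.0.16 (R 4.3.3; quasi-likelihood, TMM, filterByExpr) over all genes, with pool as a block and Benjamini-Hochberg adjustment at 0.05. P-values rest on the spread between libraries that is left after class or cluster and pool are fitted. That spread is estimated from all libraries of a fit, not from those of the compared classes alone. The block rests on the shared pups and library: over 4188 genes the median correlation of deviations from class means was 0.275 within pools (135 pairs) and -0.121 between pools (270 pairs). The fits were tested on simulated data. Any member could be named, and per companion list up to 4 called genes with the largest change. Srf was named in addition, after its values were seen. Some genes that this rule would name are not reported here. Clusters are called by the 2 genes with the largest fold found in at least 20% of their nuclei. The members, lists and comparisons were chosen with earlier results of these data known. Alternatives were DESeq2 1.42.0, no low-count filter, no pool block, leaving out each pool, doublets kept, at least 2000 UMIs, members and companion lists other than cell cycle among the clustering genes, and resolution 0.5. The erythroid-like class or the Myh6 Myh7 cluster was left out, the fourth cluster added and Myocd UMIs called after thinning as alternatives chosen after seeing the data.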

Additional observations from a re-analysis of the deposited data

How the results depend on the processing

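The count of 10 members higher in smooth muscle-like nuclei was the same in every alternative run, and the 8 calls of the Mylk4 Dgkg cluster became 6 to 9, with 6 to 8 members higher and, with the members among the clustering genes, Synpo2 lower. Against pericyte-like nuclei the 5 calls (4 higher, 1 lower) became 2 with DESeq2, 1 without the pool as a block, 2 with doublets kept, 3 with at least 2000 UMIs and 2 to 3 without 1 pool. None was higher without the block, with doublets kept or without pool 1. For cardiomyocyte-like nuclei the 8 calls (5 higher, 3 lower) became 5 to 7 without 1 pool, 6 with DESeq2, and 9 (8 higher, 1 lower) both with doublets kept and with the members among the clustering genes. The 5 calls of valve interstitial-like against fibroblast-like nuclei (1 higher, 4 lower) became 3 with DESeq2, 3 without the pool block, 3 (2 higher, 1 lower) with the members among the clustering genes and 2 to 4 without 1 pool. The 7 calls of the Egln3 Pde7b cluster became 4 with DESeq2, 3 without the block, 3 to 7 without 1 pool and 8, all lower, with the members among the clustering genes. The 4 lower calls of the Pid1 Kcnt2 cluster were lost with the members among the clustering genes, where 1 other member was called, higher, and became 2 with doublets kept and 8 with the fourth cluster in the fit. The 0 calls of nuclei with a Myocd UMI became 5 with matching within pools only. The cause of these changes was not tested.

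Members called in a reported fit changed direction in 10 cases, listed next with 1 for a member not called. With the members among the clustering genes, Myocd (0.21), Smtn (0.0026) and Synpo2 (0.0572) did so in the Pid1 Kcnt2 cluster, Lmod1 (0.47) and Myh11 (1.06) in cardiomyocyte-like nuclei, and Myh11 (0.0275) in valve interstitial-like nuclei. With doublets kept, Lmod1 (0.10) and Myh11 (0.59) did so in cardiomyocyte-like nuclei, where Lmod1 lay between -1.55 and 0.37 without 1 pool. Tagln was at -0.0505 in the Mylk4 Dgkg cluster with the fourth cluster, and Smtn at -0.0604 in nuclei with at least 1 cell cycle UMI. Members not called in a reported fit changed direction in 47 cases, 1 of them Synpo2 in the Mylk4 Dgkg cluster with the members among the clustering genes (-0.20, edgeR adjusted p = 0.034), which was called higher with the fourth cluster in the fit (0.29, edgeR adjusted p = 0.014). Of the other values of members whose change is reported, 531 kept direction and side of the threshold, 76 lost the call and 12 gained one. Without thinning the 10 shares of nuclei with a UMI were higher, and Mylk was at 252 CPM as a mean over nuclei. Depth limits the sparse members: at 1000 UMIs Actg2 was seen in 4.45% of smooth muscle-like nuclei, and the pericyte-like class had 141 nuclei in all.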
